A study of Mus musculus with 81 samples.

Results

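The genes described here encode or control the machinery that presents peptides on major histocompatibility complex (MHC) class II in the mouse. They are H2-Aa, H2-Ab1 and H2-Eb1, chains of the classical class II molecules, H2-DMa, H2-Oa and H2-Ob, chains of the accessory molecules DM and DO, Ciita, the class II transactivator, and Cd74, the invariant chain. The genes were chosen by name, and each was read from its brightest probe among the array probes that carry a single gene symbol. Of the 8 genes, 7 have such a probe and 7 passed the filter on dim probes, among 22180 genes with a single-symbol probe and 17099 genes tested. The probe for Cd74 carries a second gene symbol, so no value is given for it.

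Classical class II molecules are pairs of one alpha and one beta chain. H2-Aa pairs with H2-Ab1 to form I-A, and H2-Eb1 is the beta chain of I-E. The invariant chain occupies the groove of new molecules until cathepsins such as Ctss degrade it, after which DM exchanges the remaining fragment for an antigenic peptide. DO, formed by H2-Oa and H2-Ob, binds DM and restrains it, and is best known from B cells and some dendritic cells. Ciita does not bind DNA itself. It is recruited by the RFX, NF-Y and CREB family proteins that sit on the X and Y boxes of class II promoters.

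RNA from sorted mouse cells was profiled on 81 microarrays from 80 samples in 27 groups, of which 41 wild-type samples formed 14 groups and 39 Irf8 knockout samples formed 13. Irf8 is a transcription factor of myeloid cells. The groups were erythromyeloid progenitors of embryonic day 8 (wild type only), the A1 and A2 yolk sac populations of day 9.5, and, at day 14 (E14), brain microglia, liver Kupffer cells, kidney F4/80high cells and the CD11bhigh cells of liver and kidney. The same 5 organ populations and skin Langerhans cells were taken from adults 6 weeks old. There were 3 samples in each group but one, the E14 kidney F4/80high cells of the wild type, which had 2. The descriptions of the 3 wild-type E14 Kupffer samples share the same replicate number, as do those of the wild-type E14 liver CD11bhigh samples. Of the knockout E14 liver CD11bhigh descriptions, 2 share a number. Replicate numbers in these groups were taken from the titles. The labels give no strain or sex and do not say which deletion allele was used or whether cells of several animals were pooled. The titles of the wild-type Langerhans samples carry GFP+, which those of the knockout samples do not. The source of the GFP is not labelled, so whether these wild-type samples carried a reporter allele is not known. Apart from this, no other allele or treatment is labelled in any group.

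Values are log2 RMA expression values (1 unit is 1 doubling of the probe signal), and array medians lay between 2.94 and 3.19. A value above 3.04, the 50th percentile of all values, was counted as above the floor. The Irf8 probe fell in the knockout in 4 of 13 comparisons, by 0.69 to 3.02, and rose in 0. The labels do not place the probe relative to the deletion, so it checks the labels only in part. Markers of the labelled cells were high where the labels put them: the microglia list averaged 9.98 to 10.16 in adult wild-type microglia, the Kupffer cell list 9.94 to 10.21 in adult wild-type Kupffer cells and the Langerhans cell list 9.38 to 9.63 in wild-type Langerhans cells. The kidney tubule list reached 4.65 to 9.03 in the adult kidney groups, so the sorted kidney samples were not free of tubule RNA. In bulk samples, fewer cells of a type and less RNA per cell cannot be told apart. The labels do not say that replicates came from separate animals, so the p-values below measure only the spread between these samples.

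6 of the genes lie together on chromosome 17 between positions 34092379 and 34316674 (GRCm38.p6, RefSeq annotation): H2-Oa at chr17:34092379-34095234, H2-DMa at chr17:34119693-34139101, H2-Ob at chr17:34238905-34245908, H2-Ab1 at chr17:34263227-34269418, H2-Aa at chr17:34282744-34287823 and H2-Eb1 at chr17:34305867-34316674. Ciita lies on chromosome 16 at chr16:10480014-10531064. The promoters below are shown for the letters of the X and Y boxes, of which that of H2-Oa holds only those of the Y box. Each is the 120 bases before the RefSeq start, 5′ to 3′ on the gene's strand, with capitals marking the X box letters (AAC, then 2 or 3 bases of any kind, then TGANG) and the Y box letters GATTGG, where they lie on the gene's strand. Both were searched on both strands, and a match on the opposite strand is left in lower case. They cover chr17:34287824-34287943 (minus strand) for H2-Aa, chr17:34305747-34305866 (plus) for H2-Eb1, chr17:34238785-34238904 (plus) for H2-Ob and chr17:34092259-34092378 (plus) for H2-Oa.
H2-Aa: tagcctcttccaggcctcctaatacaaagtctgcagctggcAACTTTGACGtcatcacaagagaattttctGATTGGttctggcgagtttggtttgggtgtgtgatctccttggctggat
H2-Eb1: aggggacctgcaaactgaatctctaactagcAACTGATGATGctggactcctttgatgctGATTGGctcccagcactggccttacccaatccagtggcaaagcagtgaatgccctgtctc
H2-Ob: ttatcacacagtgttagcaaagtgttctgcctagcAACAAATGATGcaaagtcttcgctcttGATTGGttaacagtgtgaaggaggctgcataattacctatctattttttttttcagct
H2-Oa: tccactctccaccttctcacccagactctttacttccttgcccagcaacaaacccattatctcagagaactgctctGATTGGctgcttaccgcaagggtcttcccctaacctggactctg

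The X letters began at positions -79, -89 and -85 and the Y letters at -49, -60 and -58 relative to the start in H2-Aa, H2-Eb1 and H2-Ob, while the H2-Oa window held only GATTGG. RefSeq promoter entries of 5 of the genes were matched (6 windows, since H2-DMa has 2 starts), all 5 genes had GATTGG, and 3 had the X letters followed by GATTGG on the same strand within 40 bases. Among all 32851 promoter windows of 300 bases, 16.1% held GATTGG on either strand, 5.77% held the X letters and 0.128% held the pair, which is 42 windows. The letters were picked with class II promoters in view, so the matches are a description and show no binding. The promoters of H2-DMb1 and H2-DMb2, which encode DM beta chains, also held the pair, and that of H2-Eb2 held only GATTGG.

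In the wild-type adult, the classical chains were abundant everywhere except in microglia. H2-Aa read 10.73, 10.87 and 10.78 in the 3 Langerhans samples, 10.63, 10.78 and 10.54 in kidney F4/80high cells and 9.85, 9.92 and 10.05 in Kupffer cells. In adult microglia it read 4.37, 3.59 and 2.71, with 1 of 3 samples below the floor and none within 5 units of the other populations. H2-Ab1 and H2-Eb1 were lowest in microglia too, at 5.63, 5.24 and 4.70 (H2-Ab1) and 3.97, 3.27 and 3.34 (H2-Eb1) in microglia against group means of 10.81 and 9.62 in Kupffer cells. The differences of microglia from Kupffer cells were -6.38 ± 0.36 for H2-Aa (SE of the fit), -5.62 ± 0.34 for H2-Ab1 and -6.09 ± 0.34 for H2-Eb1. Ciita followed the same split, at 3.58, 4.19 and 3.71 in microglia and 7.72, 7.58 and 7.88 in Langerhans cells, a difference of -3.90 ± 0.33.

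The accessory chains did not follow this split. H2-DMa, the alpha chain of the peptide exchanger, read 7.88, 7.93 and 8.19 in adult microglia, against 8.71, 8.62 and 8.63 in Langerhans cells and 8.94, 8.87 and 8.53 in Kupffer cells. Its microglial level was lower than both, by 0.65 ± 0.27 and 0.78 ± 0.27, which is far less than the gap of the classical chains. H2-Oa was higher in microglia (7.11, 7.26 and 6.72) than in Kupffer cells (5.70, 5.39 and 5.76) by 1.41 ± 0.37 and than in Langerhans cells (5.36, 5.29 and 5.25) by 1.73 ± 0.37. H2-Ob, the other DO chain, was above Langerhans cells by 1.54 ± 0.37 and above kidney F4/80high cells by 1.02 ± 0.37. Wild-type microglia thus held H2-DMa and H2-Oa RNA well above the floor, while H2-Aa and H2-Eb1 were near it. H2-Ob was nearer to the floor, at 4.43, 4.38 and 4.66. These values lay below those of H2-Ab1 in the same cells (5.63, 5.24 and 4.70) and close to the highest H2-Aa sample (4.37). The highest H2-Oa among wild-type adults was in kidney CD11bhigh cells (7.64, 7.58 and 7.57), above Kupffer, kidney F4/80high, Langerhans and liver CD11bhigh cells by 1.17 to 2.30. Its difference from microglia did not pass (-0.57 ± 0.37 for microglia minus kidney CD11bhigh cells, adjusted p = 0.235).

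Over the 15 pairs of wild-type adult populations, 50 of 105 gene comparisons passed limma's test (Benjamini-Hochberg adjusted over all 17099 genes, threshold 0.05), against 34.1% over all genes and pairs. A difference among the 6 populations was found for 7 of 7 genes by an F-test, where 72.5% of all genes tested were also called, so the count itself sets them little apart from the rest of the array. Kupffer cells and liver CD11bhigh cells, both from liver, differed in 0 of 7 by limma (1 at an unadjusted p under 0.05, H2-Oa), where 28% of tested genes did. The number of pairs called was 7 for H2-Aa, 5 for H2-Ab1, 10 for H2-Eb1, 7 for H2-DMa, 8 for H2-Oa, 4 for H2-Ob and 9 for Ciita.

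**Figure D1:**
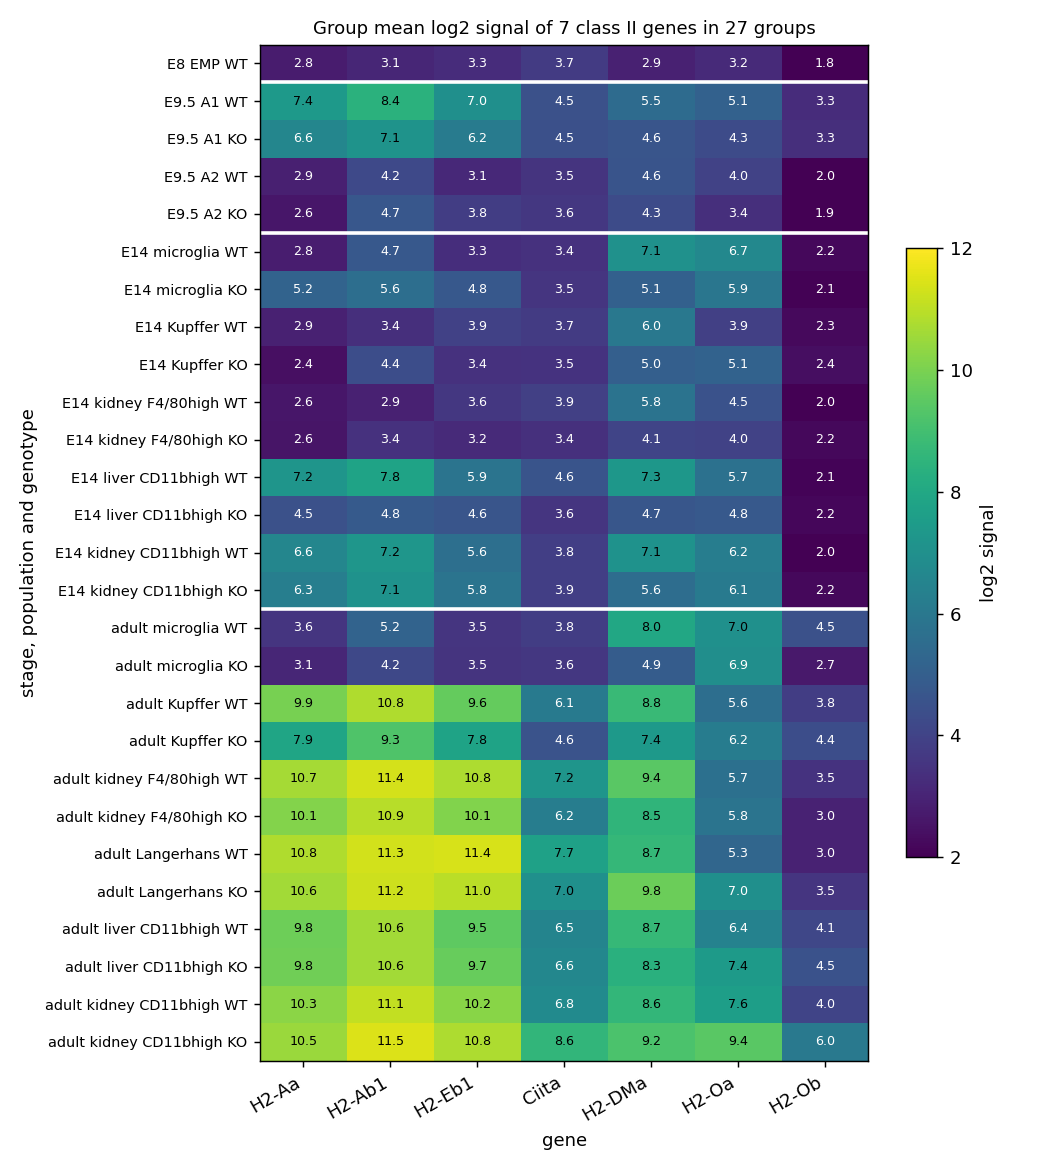
Heat map of the group mean log2 signal (colour and printed value) of the 7 genes (columns) in the 27 groups (rows, WT wild type, KO Irf8 knockout, EMP erythromyeloid progenitors), with white lines between stages. The H2-Aa means of adult groups lie at 9.78 or above except in microglia and in knockout Kupffer cells, while H2-Oa and H2-Ob peak in knockout kidney CD11bhigh cells at means of 9.44 and 6.05.

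The order of the 27 groups showed the same division. For H2-Aa the top 9 groups were all adult, from Langerhans cells of the wild type at 10.79 ± 0.07 (SD, n = 3) down to wild-type liver CD11bhigh cells at 9.78 ± 0.23, each overlapping its next neighbour. A gap followed before knockout Kupffer cells at 7.89 and the wild-type A1 population at 7.42 ± 0.65. For H2-Oa, knockout kidney CD11bhigh cells stood alone at 9.44 ± 0.42, followed by their wild-type counterpart at 7.60 ± 0.04, knockout liver CD11bhigh cells at 7.44 and wild-type microglia at 7.03 ± 0.28. H2-Ob, whose group mean was above the floor in 11 of 27 groups, was ordered alike, with knockout kidney CD11bhigh cells at 6.05 ± 0.54 and wild-type microglia next but one at 4.49 ± 0.15. Ciita was also highest in knockout kidney CD11bhigh cells (8.56 ± 0.39), followed by wild-type Langerhans cells (7.73 ± 0.15) and kidney F4/80high cells (7.23 ± 0.11). Across wild-type groups the means spanned 8.19 for H2-Aa, 8.47 for H2-Ab1, 8.25 for H2-Eb1, 6.50 for H2-DMa, 4.41 for H2-Oa, 2.69 for H2-Ob and 4.29 for Ciita.

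From E14 to the adult, the classical chains rose in 4 of the 5 wild-type populations sampled at both ages, and not in microglia. In kidney F4/80high cells H2-Aa went from 2.61 and 2.60, below the floor, to 10.63, 10.78 and 10.54, a difference of 8.05 ± 0.40. In Kupffer cells it went from 3.25, 2.52 and 3.00 to 9.85, 9.92 and 10.05 (7.01 ± 0.36). The samples of both ages lay far apart in either population. H2-Ab1 rose by 8.47 ± 0.38 in kidney F4/80high cells and 7.45 ± 0.34 in Kupffer cells, and H2-Eb1 by 7.17 ± 0.37 and 5.68 ± 0.34. Both chains of I-A were near the floor at E14, so these sizes depend on the background of the array. In the CD11bhigh cells the chains were already present at E14, with H2-Aa at 7.13, 7.31 and 7.26 in liver and 6.51, 6.20 and 7.03 in kidney, and it rose by 2.55 ± 0.36 and 3.69 ± 0.36.

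Ciita rose with the chains in Kupffer cells (2.34 ± 0.33), kidney F4/80high cells (3.33 ± 0.37), liver CD11bhigh cells (1.94 ± 0.33) and kidney CD11bhigh cells (2.95 ± 0.33). H2-DMa rose less than the classical chains, by 2.77 ± 0.27 in Kupffer cells and 3.64 ± 0.30 in kidney F4/80high cells, from E14 levels of 5.59 to 6.13 that were already well above the floor. The DO chains also rose in Kupffer cells, H2-Oa by 1.72 ± 0.37 and H2-Ob by 1.54 ± 0.37. H2-Oa in liver CD11bhigh cells was the exception among the 4 populations (0.70 ± 0.37, adjusted p = 0.153).

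In microglia H2-Ob and H2-DMa rose with age and the other genes did not pass. H2-Ob went from 2.06, 2.20 and 2.38, below the floor in all 3 E14 samples, to 4.43, 4.38 and 4.66 in the adult (2.28 ± 0.37). H2-DMa went from 7.19, 6.999 and 6.98 to 7.88, 7.93 and 8.19 (0.94 ± 0.27). Neither gene's samples overlapped between ages. H2-Aa (0.77 ± 0.36, adjusted p = 0.144) and the remaining 4 genes did not pass. In all, 29 of 35 comparisons of adult with E14 wild-type samples passed, all higher in the adult: 2 of 7 in microglia (6.68% of tested genes rose there), 7 of 7 in Kupffer cells (11.8%), 7 of 7 in kidney F4/80high cells (12.2%), 6 of 7 in liver CD11bhigh cells (14%) and 7 of 7 in kidney CD11bhigh cells (14.4%). The median difference of the 7 genes was 2.77 in Kupffer cells, where the median of all genes was -0.04.

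**Figure D2:**
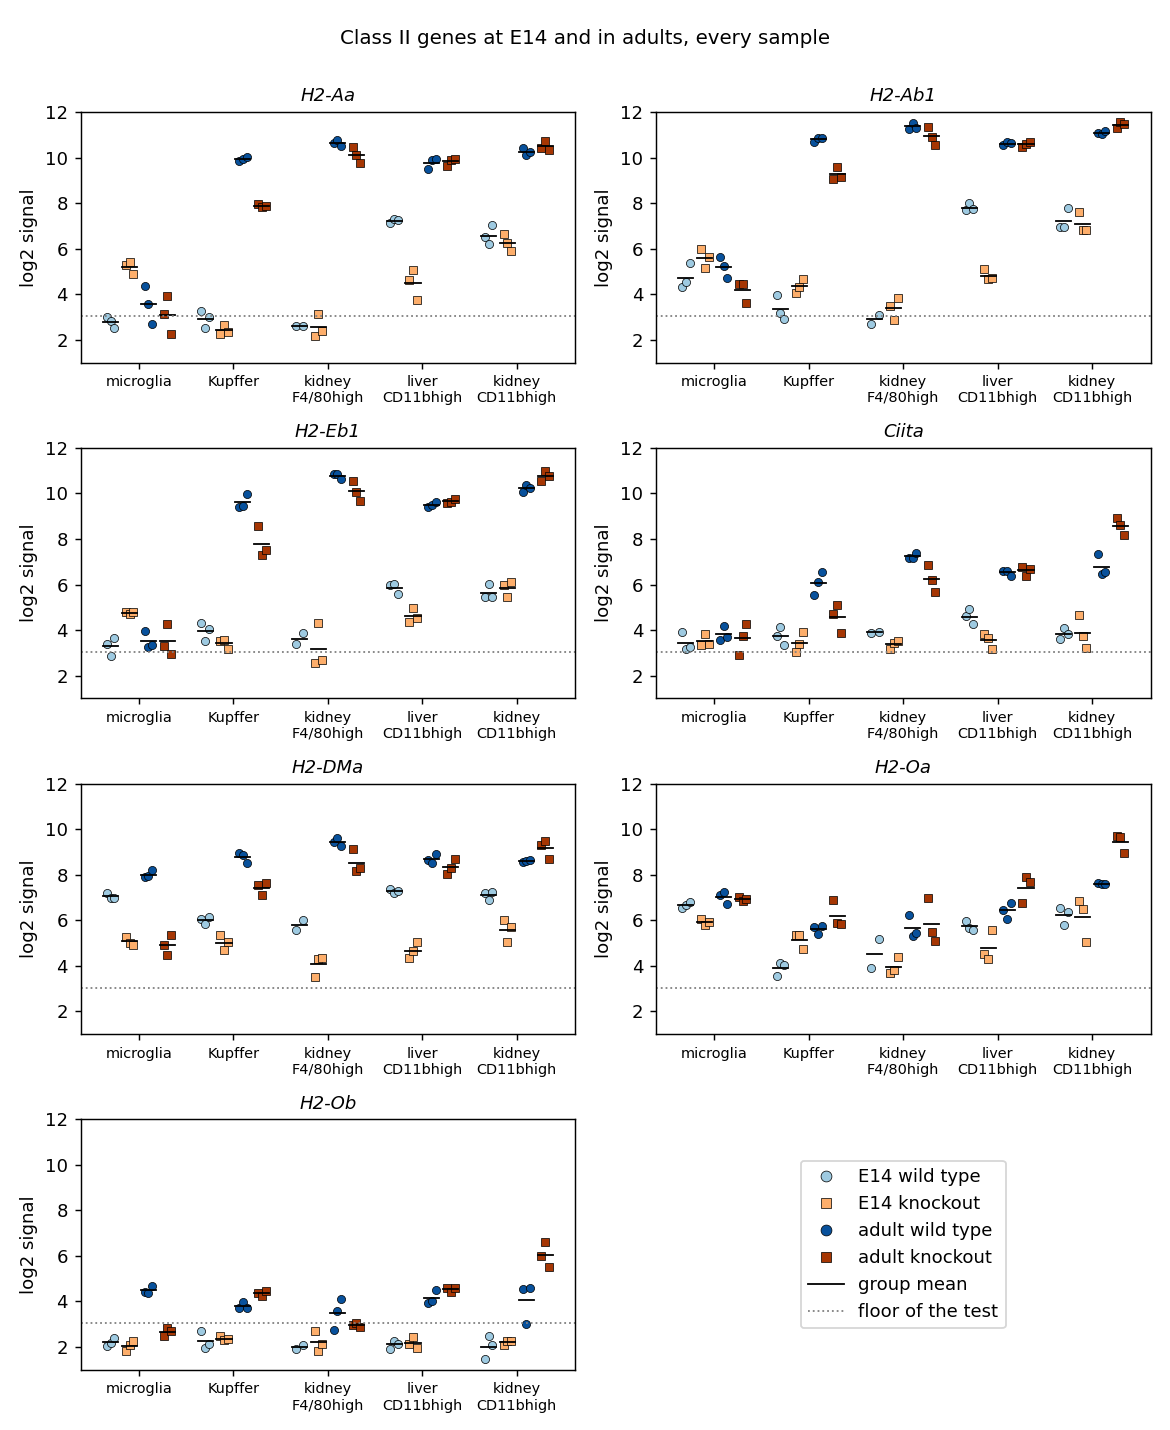
Log2 expression of the 7 genes at E14 and in the adult for the 5 populations sampled at both ages, wild type and Irf8 knockout, one point per sample. H2-Aa rises in 4 wild-type populations, by 8.05 in kidney F4/80high cells and 7.01 in Kupffer cells, and is between 2.52 and 4.37 in wild-type microglia at both ages. Circles are wild type, squares knockout, short lines group means and the dotted line the floor.

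Other genes of the pathway were read from lists. The class I presentation list, whose genes serve presentation to CD8 T cells, rose in 7 of 9 in both Kupffer and kidney F4/80high cells, led by Nlrc5, the class I counterpart of Ciita (2.22 ± 0.24 in Kupffer cells), and in 2 of 9 in microglia. H2-DMb1, a beta chain of DM, rose in 5 of 5 populations. The list of interferon-gamma signalling and Ciita regulators rose in 6 of 12 in Kupffer cells, Irf1 among them, in 10 of 12 in liver CD11bhigh cells and in 3 of 12 in microglia. Markers of other cell types rose alongside. B cell markers rose in 8 of 11 in Kupffer cells (list mean 3.54 to 3.72 at E14 and 4.70 to 5.41 in the adult) but in 1 of 11 in kidney F4/80high cells (3.52 to 3.60 and 3.81 to 3.99), where 6 of 11 of these markers were at or below the floor. Dendritic cell markers rose in 6 of 11 in Kupffer cells and 4 of 11 in kidney F4/80high cells, and T and natural killer cell markers in 9 of 9 and 6 of 9. The part of these cell types in the class II rise was not tested.

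In the Irf8 knockout, class II genes changed in both directions among the adult populations. H2-DMa, H2-Ob and Ciita were each called lower in at least 1 population and higher in another, H2-Aa, H2-Ab1 and H2-Eb1 were called only lower, and H2-Oa only higher. Of 42 adult comparisons of knockout with wild type, 14 passed, 5 higher and 9 lower in the knockout. The share of all tested genes called is given with each population below. The samples of the 2 genotypes did not overlap in 25 of the 42, among them all 14 that passed. The share of all genes without overlap was not counted. The knockout effect differed among the 6 adult populations for 7 of 7 genes by the F-test, which called 46% of all genes tested, and for 5 of 7 genes with array weights. Adjusted p ranged over these genes from 1.06e-13 for H2-DMa to 0.00646 for H2-Ab1.

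In adult Kupffer cells 5 of 7 genes fell in the knockout (7.39% of tested genes fell there), with a median difference over the 7 of -1.51 against -0.04 over all genes. H2-Aa read 9.85, 9.92 and 10.05 in the wild type and 7.97, 7.83 and 7.87 in the knockout, about 4.14-fold lower in signal. H2-Ab1 fell by 1.54 ± 0.34, from 10.70, 10.88 and 10.85 to 9.05, 9.59 and 9.15, and H2-Eb1 from 9.39, 9.47 and 9.998 to 8.57, 7.30 and 7.51. No sample of either genotype crossed into the range of the other for these chains. Ciita fell by 1.51 ± 0.33, from 5.55, 6.10 and 6.57 to 4.73, 5.11 and 3.86, and H2-DMa by 1.35 ± 0.27. The call on Ciita was lost when only the 2 groups compared were fitted (adjusted p = 0.146), and those on H2-Ab1 and H2-DMa were lost with array weights. The DO chains did not fall: H2-Oa was at 5.70, 5.39 and 5.76 in the wild type and 6.87, 5.86 and 5.82 in the knockout (0.57 ± 0.37, adjusted p = 0.373).

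Several other measures moved with genotype in the adult Kupffer samples. Of 8 endothelial markers 7 rose in the knockout (list mean 5.65 to 7.36 in the wild type, 7.86 to 8.24 in the knockout), and of 11 dendritic cell markers 4 fell and 2 rose (4.65 to 5.38 and 4.33 to 4.44), Flt3 by -1.54 ± 0.34 and Ccl22 by -3.99 ± 0.77 among those lower. Markers of B cells, which express class II themselves, rose in 3 of 11 in the knockout (4.70 to 5.41 and 5.33 to 5.97). The sex of the animals also differed: Xist was at 3.23, 2.71 and 3.88 in the wild type and 9.99, 9.54 and 9.52 in the knockout. Sex and genotype cannot be told apart in this comparison, and the part of the marker changes in the result was not tested.

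In adult microglia H2-DMa, H2-Ob and, by a narrow margin, H2-Ab1 fell in the knockout. H2-DMa read 7.88, 7.93 and 8.19 in the wild type and 4.90, 4.46 and 5.36 in the knockout, 8.55-fold lower in signal. H2-Ob fell from 4.43, 4.38 and 4.66 to 2.48, 2.82 and 2.72, so all 3 knockout samples were below the floor. H2-Oa, the partner of H2-Ob in DO, was at 7.11, 7.26 and 6.72 in the wild type and 7.02, 6.85 and 6.92 in the knockout (-0.10 ± 0.37). H2-Ab1 passed narrowly at -1.01 ± 0.34 (adjusted p = 0.032), a call lost with array weights and without wild-type replicate 1 or 2 or knockout replicate 3, when it lay between -0.99 and -0.74. In all 3 of 7 genes fell, against 8.71% of tested genes. Beside them the DM beta chains H2-DMb1 (-1.17 ± 0.38) and H2-DMb2 (-1.17 ± 0.36) fell; these are near-identical copies whose probes may not separate them. The microglia marker list was lower in the knockout (8.21 to 8.27) than in the wild type (9.98 to 10.16), the general macrophage list was at 10.11 to 10.16 against 10.31 to 10.43, and their part in the result was not tested. Wild-type replicate 1 differed from the other adult microglia samples in sex, with Xist at 2.99.

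In adult kidney CD11bhigh cells 3 of 7 genes rose in the knockout (6.94% of tested genes rose), and these were Ciita and both DO chains. Ciita read 7.34, 6.46 and 6.57 in the wild type and 8.93, 8.60 and 8.16 in the knockout. H2-Oa went from 7.64, 7.58 and 7.57 to 9.72, 9.64 and 8.95 (1.84 ± 0.37, adjusted p = 0.000252). H2-Ob went from 4.54, 3.00 and 4.60 to 6.01, 6.60 and 5.53, 4.01-fold higher in signal. The 2 genotypes did not overlap for any of the 3 genes. The call on H2-Ob was lost when only these 2 groups were fitted (adjusted p = 0.102). The classical chains, above 10 in every sample of both genotypes, did not pass (H2-Aa 0.23 ± 0.36, H2-Ab1 0.35 ± 0.34, H2-Eb1 0.55 ± 0.34). H2-DMa went from 8.57, 8.59 and 8.66 to 9.32, 9.46 and 8.70, at an unadjusted p under 0.05 by limma, and did not pass either. The knockout samples of H2-Ab1, H2-Eb1 and H2-DMa were nonetheless all above those of the wild type, while H2-Aa overlapped. H2-DMb2 rose by 1.36 ± 0.36.

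The kidney CD11bhigh samples also differed in makeup. In the knockout 10 of 12 neutrophil markers rose (list mean 3.53 to 4.72 in the wild type, 7.99 to 8.81 in the knockout), 4 of 11 dendritic cell markers rose (5.70 to 5.81 and 6.40 to 6.75), led by Clec10a at 2.26 ± 0.38, 7 of 9 T and natural killer cell markers fell and 2 of 11 B cell markers rose, Fcer2a by 2.59 and Cd22 by 1.69. Of the B cell markers, 6 of 11 (Blk, Cr2, Ebf1, Fcmr, Ms4a1 and Pax5) had knockout means at or below the floor. Cd79a, of the same list, read 4.79, 5.22 and 4.31 in the wild type and 3.85, 4.89 and 3.52 in the knockout. Among the dendritic cell markers, the mean of Xcr1 was at or below the floor in the knockout only. The part of these markers in the rise of Ciita and the DO chains was not tested. Irf4, the closest relative of Irf8, was higher in the knockout by 1.33 in these cells and in 6 of 13 knockout comparisons in all.

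Among the other adult populations, knockout Langerhans cells had more H2-DMa and H2-Oa. H2-DMa went from 8.71, 8.62 and 8.63 to 9.84, 9.84 and 9.59 (1.10 ± 0.27) and H2-Oa from 5.36, 5.29 and 5.25 to 7.31, 7.04 and 6.57 (1.67 ± 0.37), so 2 of 7 genes rose where 16.6% of tested genes did. Ciita was at 7.72, 7.58 and 7.88 in the wild type and 7.10, 7.07 and 6.87 in the knockout, without overlap but short of the threshold (-0.72 ± 0.33, adjusted p = 0.11). The keratinocyte list was at 7.24 to 7.50 in the wild type and 9.31 to 9.69 in the knockout, 2 of 7 monocyte markers rose (2.50 to 2.96 and 3.73 to 4.15) and 5 of 11 dendritic cell markers fell. Y-linked Eif2s3y was at 1.62, 2.68 and 1.31 in the wild type and 4.87, 4.93 and 7.57 in the knockout, and Xist at 9.77, 9.91 and 10.30 and at 9.68, 9.54 and 7.70. The part of these differences and of the GFP+ label was not tested. In kidney F4/80high cells 1 of 7 genes, H2-DMa, fell (2.19% of tested genes fell), from 9.42, 9.60 and 9.27 to 9.11, 8.16 and 8.31 (-0.90 ± 0.27, adjusted p = 0.041). That call was lost under 4 of the 12 alternative settings and without any 1 of 5 samples, and the difference then ran from -0.98 to -0.72. Ciita (7.15, 7.18 and 7.36 to 6.88, 6.21 and 5.65) and H2-Eb1 (10.84, 10.86 and 10.64 to 10.54, 10.07 and 9.66) did not pass. Both were lower in the knockout at an unadjusted p under 0.05 by limma. The genotypes did not overlap for Ciita, H2-Eb1 and H2-Aa, and did for H2-Ab1, H2-Oa and H2-Ob. In liver CD11bhigh cells 0 of 7 passed by limma (1 at an unadjusted p under 0.05, against 16.8% of tested genes called), with H2-Oa nearest at 1.01 ± 0.37 (adjusted p = 0.0524). Beside it, 9 of 12 neutrophil markers rose in the knockout (list mean 5.27 to 6.95 in the wild type, 10.09 to 10.32 in the knockout), 8 of 11 B cell markers rose (3.89 to 3.995 and 4.52 to 5.44), 4 of 8 macrophage markers fell (8.88 to 9.13 and 7.87 to 8.24) and 3 of 7 monocyte markers fell (9.41 to 9.92 and 8.41 to 8.61), and their part was not tested.

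Differences of the knockout effect between populations were tested directly, whatever the sign of each effect, and 39 of 105 comparisons over 15 pairs passed, against 15.1% over all genes and pairs. The effect on Ciita was lower in Kupffer cells than in kidney CD11bhigh cells by 3.28 ± 0.47 (adjusted p = 1.15e-06), and those on H2-Aa, H2-Ab1, H2-Eb1 and H2-DMa were lower by 1.90 to 2.37, 5 of 7 genes against 8.38% of tested genes. The effect on H2-DMa was lower in microglia than in Langerhans cells by 4.20 ± 0.38, and the effect on H2-Ob was lower in microglia than in kidney CD11bhigh cells by 3.82 ± 0.52. Between microglia and Kupffer cells 4 of 7 genes passed: the microglial effect was higher on H2-Aa (1.59) and H2-Eb1 (1.81) and lower on H2-DMa (-1.74) and H2-Ob (-2.38), with 6.65% and 6.19% of tested genes called in these directions. Between Kupffer and kidney F4/80high cells 0 of 7 passed by limma, and 4 were at an unadjusted p under 0.05 (4.64% of tested genes passed). H2-DMa had the most pairs called (10 of 15), followed by H2-Ob with 7 and Ciita with 6.

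**Figure D3:**
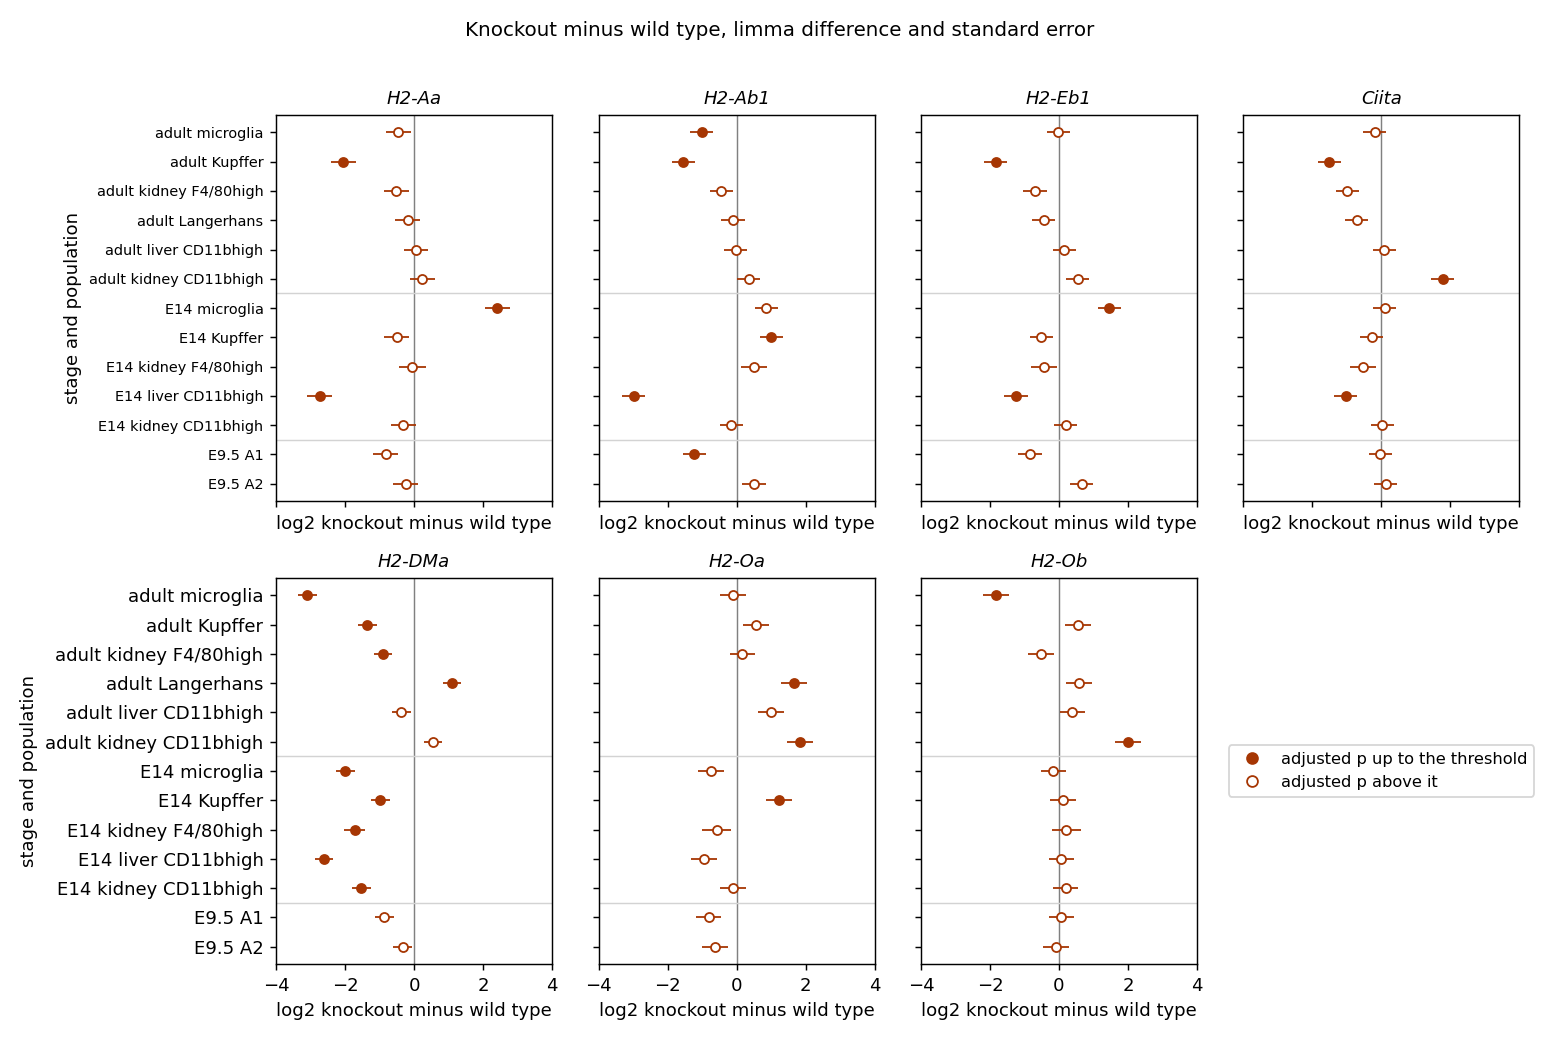
Knockout minus wild-type differences (log2, points with SE bars) of the 7 genes in the adult, E14 and yolk sac (E9.5) populations, filled where they passed the test. The classical chains and Ciita lie below 0 in adult Kupffer cells, Ciita and the DO chains lie above 0 in adult kidney CD11bhigh cells, and H2-DMa lies below 0 in all 5 E14 populations.

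At E14, 13 of 35 knockout comparisons passed, 4 higher and 9 lower, and H2-DMa fell in 5 of 5 populations. It went from 7.19, 6.999 and 6.98 to 5.26, 5.02 and 4.93 in microglia, from 6.05, 5.84 and 6.13 to 5.35, 4.68 and 5.03 in Kupffer cells, and from 7.38, 7.18 and 7.28 to 4.33, 4.63 and 5.05 in liver CD11bhigh cells. It was lower by 1.73 ± 0.30 in kidney F4/80high cells and by 1.53 ± 0.27 in kidney CD11bhigh cells, and the first of these was lost when only those 2 groups were fitted. All 5 comparisons were free of overlap. The share of tested genes that fell was 5.98% in microglia, 9.81% in Kupffer cells, 1.38% in kidney F4/80high cells, 8.29% in liver CD11bhigh cells and 8.05% in kidney CD11bhigh cells. The decline of H2-DMa was thus present in embryonic groups where H2-Aa was near the floor as well as where they were expressed.

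H2-Aa and H2-Eb1 moved in opposite directions in E14 microglia and E14 liver CD11bhigh cells. In microglia H2-Aa rose from 3.01, 2.84 and 2.52 to 5.30, 5.41 and 4.88 (2.41 ± 0.36, adjusted p = 5.18e-07) and H2-Eb1 from 3.39, 2.87 and 3.66 to 4.80, 4.71 and 4.78, so 2 of 7 genes rose (8.3% of tested genes), while H2-Ab1 did not pass there (0.86 ± 0.34, adjusted p = 0.0805). In liver CD11bhigh cells 5 of 7 fell: H2-Aa from 7.13, 7.31 and 7.26 to 4.64, 5.06 and 3.77 (-2.74 ± 0.36), H2-Ab1 by 2.98 ± 0.34, H2-DMa by 2.62 ± 0.27, H2-Eb1 by 1.24 ± 0.34 and Ciita by 1.04 ± 0.33. The 2 genotypes were separate for each. The call on Ciita was lost without wild-type replicate 1 or 2 or knockout replicate 2 or 3, and the difference then lay between -1.09 and -0.86. In E14 Kupffer cells H2-Ab1 (1.01 ± 0.34) and H2-Oa (1.24 ± 0.37) rose, 2 of 7 where 13.2% of tested genes rose. The call on H2-Ab1 was lost without wild-type replicate 2 or 3 or knockout replicate 3 (0.79 to 1.32 over the samples left out), and that on H2-Oa without wild-type replicate 1.

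Cell markers moved with these results too. In knockout E14 microglia 7 of 7 monocyte markers rose (list mean 4.04 to 5.05 in the wild type, 6.78 to 7.09 in the knockout) and 8 of 12 neutrophil markers rose (3.58 to 6.92 and 8.40 to 8.75), while the microglia list was at 9.19 to 9.32 and 6.91 to 7.34. In knockout E14 liver CD11bhigh cells 4 of 7 monocyte markers fell (8.51 to 8.58 and 6.72 to 7.09) and the macrophage list was at 7.85 to 7.98 and 6.50 to 7.06. In knockout E14 Kupffer cells 6 of 6 Kupffer cell markers fell (8.98 to 9.16 and 6.25 to 6.81). In knockout E14 kidney CD11bhigh cells 5 of 8 macrophage markers fell (9.25 to 9.34 and 7.95 to 8.61) and 7 of 12 neutrophil markers rose (5.12 to 7.61 and 8.44 to 10.13). Their part in the class II changes was not tested. The list of antigen processing genes, which holds cathepsins and Ifi30, a thiol reductase of the endosome, fell in 8 of 8 in E14 Kupffer cells and 6 of 8 in E14 liver CD11bhigh cells, where Ctss was at -3.65.

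The genes around the 7 were read for the knockout from lists. Of the 10 genes of the complex that assembles on X and Y boxes, 3 fell in knockout adult Kupffer cells (Nfyc, Nfya and Creb1, by 0.51 to 0.55), and Rfx5, an RFX subunit, fell in 1 of 13 knockout comparisons, E14 liver CD11bhigh cells (-0.75 ± 0.25). Of the 12 genes of the interferon-gamma and Ciita regulator list, 7 fell in adult liver CD11bhigh cells, where Ciita itself did not pass. Irf1 fell in adult Kupffer cells (-0.65 ± 0.23) and also in adult kidney CD11bhigh cells (-0.64 ± 0.23), where Ciita rose. Tap1, a subunit of the class I peptide transporter, fell in 9 of 13 knockout comparisons and rose in 0. Of the antigen processing list, 0 of 8 rose and 4 fell in adult kidney CD11bhigh cells. Batf3, a transcription factor partner of Irf8 in dendritic cells, fell in 8 of 13.

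The difference of the knockout effect between adult and E14 passed in 17 of 35 comparisons, 9 higher and 8 lower in the adult. In liver CD11bhigh cells it was higher for H2-Aa (2.80), H2-Ab1 (2.95), H2-Eb1 (1.40), H2-DMa (2.25) and H2-Oa (1.94), 5 of 7 genes against 9.18% of tested genes. In microglia it was lower for 5 of 7 genes (6.8% of tested genes), H2-Aa by 2.87 ± 0.51. In kidney CD11bhigh cells it was higher for H2-DMa (2.08), H2-Oa (1.94), H2-Ob (1.81) and Ciita (1.75), 4 of 7 against 7.49%. In kidney F4/80high cells 0 of 7 passed by limma (1 at an unadjusted p under 0.05, against 1.04% of tested genes called).

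The rise with age can also be read within the knockout. Microglial H2-Aa was lower in the adult than at E14, from 5.30, 5.41 and 4.88 to 3.12, 3.92 and 2.25 (-2.11 ± 0.36), as were H2-Ab1 (-1.42 ± 0.34) and H2-Eb1 (-1.25 ± 0.34), against 22.2% of tested genes lower. In all 28 of 35 comparisons were higher in the knockout adult than in the knockout E14 samples, 1 of 7 in microglia (13%), 7 of 7 in Kupffer cells (18.6%), 6 of 7 in kidney F4/80high cells (14.3%), 7 of 7 in liver CD11bhigh cells (8.65%) and 7 of 7 in kidney CD11bhigh cells (13.3%). In Kupffer cells the difference of the knockout effect was lower for H2-Aa, H2-Ab1 and H2-Eb1 (-1.54, -2.55 and -1.31, with 10.5% of tested genes lower), whose rise with age was 5.47, 4.90 and 4.37 in the knockout.

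Earlier still, the A1 population of the yolk sac held classical chain RNA that neither the progenitors before it nor the A2 population beside it had at such levels. H2-Aa read 2.07, 3.30 and 2.94 in day 8 progenitors, 6.88, 7.23 and 8.15 in wild-type A1 and 2.34, 2.54 and 3.70 in wild-type A2. H2-Ab1 followed at 3.17, 3.25 and 2.85, then 7.92, 8.18 and 9.02, then 3.83, 3.88 and 4.97. From progenitors to A1, 6 of 7 genes rose (12.8% of tested genes), H2-Aa by 4.65 ± 0.36 and H2-Ab1 by 5.28 ± 0.34, and Ciita did not pass (0.77 ± 0.33, adjusted p = 0.0921). From A1 to A2, 7 of 7 fell in the wild type (5.7% of tested genes) and 4 of 7 in the knockout (1.88%). From A2 to E14 microglia H2-DMa (2.45) and H2-Oa (2.68) rose, 2 of 7 against 14%. From A2 to E14 Kupffer cells H2-DMa rose by 1.40, 1 of 7 against 11.5%, and H2-Ab1 fell by 0.87 with overlapping samples (14% of tested genes fell).

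B cell markers had the same shape. Their list averaged 2.45 to 2.65 in the progenitors, 4.85, 4.98 and 4.70 in wild-type A1 and 3.20 to 3.43 in wild-type A2, with 10 of 11 rising into A1 and 8 of 11 falling into A2. Cd79a, a chain of the B cell receptor complex, read 6.30, 6.39 and 5.94 in wild-type A1. T and natural killer cell markers rose in 7 of 9 into A1 and fell in 6 of 9 into A2. In knockout A1 the samples spread widely: replicate 3 was the lowest in all 7 genes, with H2-Aa at 6.91, 7.55 and 5.34, and also the lowest in the B cell list at 4.83, 5.38 and 3.58. The part of B cells, dendritic cells or T and natural killer cells in the A1 values was not tested. In the knockout 1 of 7 genes passed in A1, H2-Ab1 at -1.23 ± 0.34 (2.77% of tested genes fell), with overlapping samples, and it was lost without wild-type replicate 3 or knockout replicate 3 (-1.63 to -0.43 over the samples left out). In A2, 0 of 7 passed by limma and 0 were at an unadjusted p under 0.05 (10% of tested genes passed), although Ctss, the cathepsin that trims the invariant chain, fell there by 5.05 ± 0.24 and Ifi30 by 3.29.

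**Figure D4:**
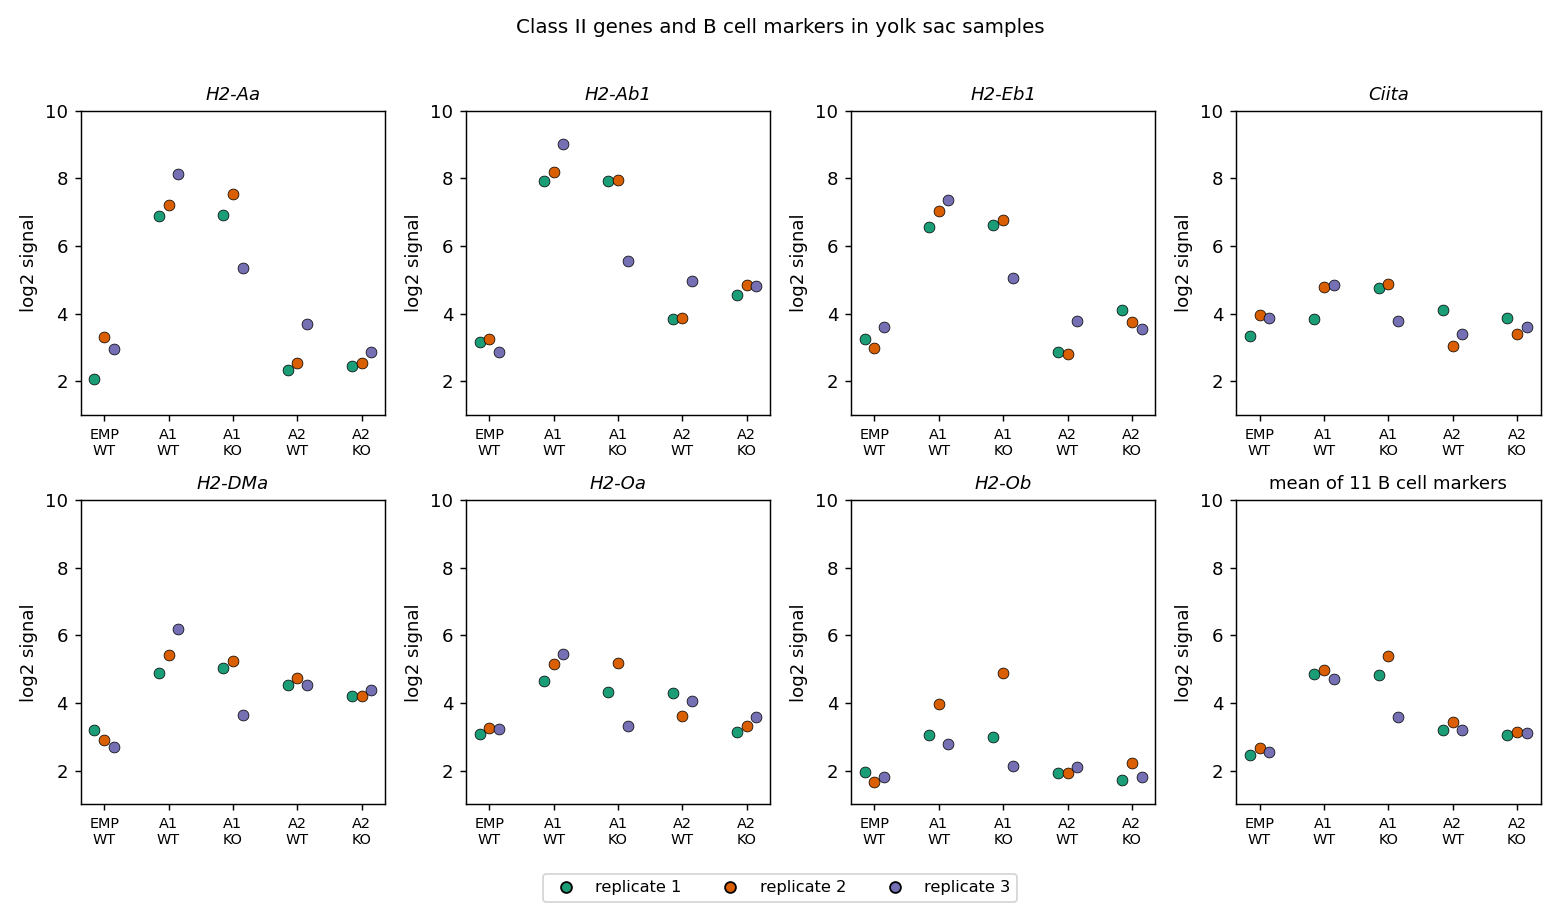
Log2 signal of the 7 genes and the mean of 11 B cell markers in day 8 progenitors (EMP) and in A1 and A2 of day 9.5, wild type (WT) and knockout (KO), one point per sample with the replicate number as colour. H2-Aa reaches 6.88 to 8.15 in wild-type A1, where the B cell list is at 4.70 to 4.98, and returns to 2.34 to 3.70 in A2.

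Over the 27 group means, which share samples with all comparisons above, the 3 classical chains had Pearson correlations of 0.98 to 0.99 with each other, a description with no test. Ciita correlated with them at 0.91 to 0.95, H2-DMa at 0.83 to 0.85 and H2-Oa at 0.54 to 0.60, H2-Ob at 0.66 to 0.70, and H2-Oa with H2-Ob at 0.73. The 8 genes outside the group most like the mean of the 3 chains were Slamf7 (0.95), Itgax (0.90), Ndrg1 (0.84), Crlf2 (0.84), Gpr132 (0.84), Grk3 (0.83), 5430437J10Rik (0.83) and Lncpint (0.82). Those most like Ciita were Slamf7 (0.96), Alcam (0.90), Itgax (0.90), 5430437J10Rik (0.89) and Tnip3 (0.88). For the DO chains they were LOC100040974 (0.85), Ndnf (0.82), Slc25a35 (0.82), St8sia6 (0.81) and H2-DMb2 (0.81).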

How the data were processed

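Expression was measured on Affymetrix arrays, and the authors deposited log2 values. The submitters' processing notes name RMA and Affymetrix Expression Console, with no version, and the probe annotation build was not stated. No count or depth exists for arrays, so the number of arrays limits precision. Of 41345 probes, 23521 carry 1 gene symbol, 1814 carry several and were not used, and each gene was read from its brightest single-symbol probe. Genes above the 50th percentile (3.04) in at least 2 arrays were tested (17099). The 2 runs of A2 knockout replicate 2 were averaged (correlation 0.969).

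A mean per group was fitted over all 27 groups with limma 3.58.1 in R 4.3.3 (lmFit, eBayes with trend, 53 residual degrees of freedom), two-sided, with Benjamini-Hochberg adjustment over all genes tested within each contrast and a threshold of 0.05. The fit was tested on simulated data. Pairing by replicate number was checked in 23 comparisons of knockout with wild type or of adult with E14. In 0 of them did every pair of same-numbered samples correlate above 0.1. Those samples differ in genotype or age, so the check cannot tell whether populations of the same organ shared animals. Same-numbered samples of different populations from the same organ, stage and genotype correlated between -0.04 and 0.39, highest in wild-type adult kidney. The main fit took them as independent. With the replicate within an organ as a random block, 214 of 215 calls were kept. The titles of the wild-type E14 kidney F4/80high samples carry other numbers than the replicate numbers used here. Those of the wild-type E14 kidney CD11bhigh samples do not, so equal replicate numbers of these 2 groups need not mark a shared sort. Some titles of the knockout E14 kidney samples also carry other numbers, in the same way in both groups. The genes and lists were chosen with earlier results of these data known. Named genes were the 7 genes, Irf8, up to 3 genes per list and comparison with the smallest adjusted p, and the most alike genes over the group means. Other list genes named (such as Irf4, Irf1, Rfx5, Batf3, H2-DMb1, Cd22 and Xist) were chosen after their values were seen. Alternatives covered 12 settings and leaving out each of 80 samples in turn. Promoters came from a RefSeq table of GRCm38.p6.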

Additional observations from a re-analysis of the deposited data

Results flagged for a closer look

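The knockout effect on 7 of 7 genes differed among the 6 adult populations by limma's F-test, which called 46% of all genes tested. With array weights 5 of 7 were called. Its adjusted p was 0.00184 for H2-Aa, 0.00646 for H2-Ab1, 0.000494 for H2-Eb1, 1.06e-13 for H2-DMa, 0.00485 for H2-Oa, 5.17e-07 for H2-Ob and 6.34e-07 for Ciita.

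The knockout effect in the adult minus that at E14 was tested in the same fit and passed for 17 of 35 combinations. The shares of all tested genes called lower were 6.8% in microglia and 10.5% in Kupffer cells. Those called higher were 9.18% in liver CD11bhigh cells and 7.49% in kidney CD11bhigh cells. In microglia the value was -2.87 for H2-Aa, -1.87 for H2-Ab1, -1.47 for H2-Eb1, -1.11 for H2-DMa and -1.66 for H2-Ob. In Kupffer cells it was -1.54 for H2-Aa, -2.55 for H2-Ab1 and -1.31 for H2-Eb1. In liver CD11bhigh cells it was 2.80 for H2-Aa, 2.95 for H2-Ab1, 1.40 for H2-Eb1, 2.25 for H2-DMa and 1.94 for H2-Oa. In kidney CD11bhigh cells it was 2.08 for H2-DMa, 1.94 for H2-Oa, 1.81 for H2-Ob and 1.75 for Ciita. Groups held 2 or 3 samples, so no sample was tested for standing apart from its group.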

How the results depend on the processing

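Of 215 member results that passed the test, 172 passed under all 12 alternative settings and 154 also with every sample left out in turn, and 0 changed sign. With array weights, knockout genes called lower in adults went from 9 to 5, and in the yolk sac 1 was called higher (H2-Eb1 in A2) and 2 lower. Yolk sac calls lower were 0 when only the groups compared were fitted and 2 with the floor at the 75th percentile. With the replicate number as a block, 213 of the 215 calls were kept, and those lost were H2-Ab1 from A2 to E14 Kupffer cells and H2-DMa in the microglial difference between ages. With 1 sample left out, adult knockout calls ranged from 5 to 6 higher and 8 to 10 lower, E14 calls from 3 to 5 higher and 8 to 9 lower, and yolk sac calls from 0 to 0 higher and 0 to 3 lower, where A1 samples decided H2-Ab1. Calls for the difference between ages ranged from 8 to 9 higher and 5 to 8 lower, wild-type calls with age from 27 to 30, knockout ones from 27 to 28 higher and 3 to 3 lower, and yolk sac steps from 9 to 10 higher and 8 to 13 lower. Pairs of adult populations ranged from 46 to 56 in the wild type and 35 to 43 for knockout effects, and both F-tests called 7 whichever sample was left out. Over the 12 settings these pairs ranged from 46 to 66 and from 27 to 42, and the F-test on knockout effects called 5 with array weights and 7 otherwise. The cause of these shifts was not tested. Beyond the calls named in the report, H2-Oa and H2-Ob from E14 to adult kidney F4/80high cells of the wild type were lost without E14 replicate 1, and H2-Oa there also without adult replicate 1. For the difference between ages, H2-DMa in microglia was lost under 4 settings and without any 1 of 11 samples, and H2-Eb1 in Kupffer cells under 5 settings and without any 1 of 8 samples. H2-Oa in adult knockout liver CD11bhigh cells passed under 5 settings. Signals near the floor limit H2-Ob, above it in 29 of 81 arrays.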
